A study of Mus musculus with 2 samples.

Results

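The genes described are 10 transcription factors with a part in making fat cells: Pparg, Cebpa, Cebpb, Cebpd, Rxra, Klf15, Ebf1, Zfp423, Tcf7l2 and Klf5. They were chosen by name, and all 10 were found among the 32285 genes of the deposited count matrices. The counts come from single-nucleus RNA sequencing of perivascular fat dissected from around the mesenteric vessels of mice aged 11 weeks. There were 2 libraries. The control library came from mice of genotype Prdm16flox, whose Prdm16 alleles are flanked by loxP sites. The other library, here called cKO-labelled, came from mice labelled Prdm16flox, AdopiQCre+ (written AdipoQCre+ in the series' design text), which carry the same floxed alleles and also Cre recombinase. As the name has it, Cre is under the adiponectin promoter, a promoter active in fat cells. The number of animals behind each library is not given. The labels conflict on the tissue and the RNA: each sample is given as mesenteric fat and nuclear RNA, but the series title has thoracic and abdominal fat and the design text has total RNA. The sample labels are used here. With 1 library per genotype no test between genotypes is possible, and every interval below is a 95% interval of counting error only.

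Fat cell formation runs through a cascade of transcription factors. C/EBPβ (Cebpb), C/EBPδ (Cebpd) and KLF5 (Klf5) act early, EBF1 (Ebf1) and ZFP423 (Zfp423) mark committed precursors, and all feed into PPARγ (Pparg), a nuclear receptor that binds DNA together with RXRα (Rxra). PPARγ and C/EBPα (Cebpa) then maintain each other and the genes of lipid storage, KLF15 (Klf15) acts late, and TCF7L2 (Tcf7l2) is a DNA-binding partner of β-catenin in the Wnt pathway. Prdm16 is a co-regulator that binds PPARγ and C/EBP proteins in thermogenic fat, and Zfp423 is known in white fat as a factor that holds the thermogenic programme back.

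Start sites were looked up in RefSeq promoter windows on GRCm38.p6, each running from 250 bases before the first transcribed base to 50 bases from it onwards. There were 14 windows for 8 of the 10 genes, while Cebpd and Klf5 were not matched. Both strands were searched for 5 motifs: TTGCNNCAA for C/EBP, the nuclear receptor site AGGTCA repeated after 1 base for PPAR-RXR, TCCC and GGGA parted by 2 bases for EBF, CTTTGAT for TCF and CCNCNCCC for KLF proteins. The KLF letters were in all 14 windows, with 1 to 10 matches each (overlapping matches counted separately), and in 49.5% of all 32851 RefSeq windows of the same length. None of the 14 held the letters of the C/EBP, PPAR-RXR, EBF or TCF motif, which were in 2.08%, 0.0396%, 0.904% and 3.73% of all windows. A match describes letters only, and a missing match says nothing about binding. The windows below belong to 3 of the genes whose ratio between the libraries had the same sign in each adipocyte-like cluster, with 2 alternative starts of Pparg that differ in base composition. Bases are written 5′ to 3′ on the gene's strand, and capitals mark the KLF matches. The first Pparg window (chr6:115360894-115361193, plus strand) has 80.3% G and C and 4 matches. The other Pparg window shown (chr6:115421816-115422115, plus strand), at the downstream start of the fat-selective isoform, has 40.3% G and C and 1 match. A further Pparg window (chr6:115362099-115362398, plus strand), not shown, has 62.7% and 2 matches. The Zfp423 window shown (chr8:87959546-87959845, minus strand) has 65.7% G and C and 6 matches. Another Zfp423 window (chr8:87804390-87804689, minus strand), not shown, has 65% and 1 match. The Klf15 window (chr6:90462326-90462625, plus strand) has 73.3% and 3 matches.
Pparg, upstream start: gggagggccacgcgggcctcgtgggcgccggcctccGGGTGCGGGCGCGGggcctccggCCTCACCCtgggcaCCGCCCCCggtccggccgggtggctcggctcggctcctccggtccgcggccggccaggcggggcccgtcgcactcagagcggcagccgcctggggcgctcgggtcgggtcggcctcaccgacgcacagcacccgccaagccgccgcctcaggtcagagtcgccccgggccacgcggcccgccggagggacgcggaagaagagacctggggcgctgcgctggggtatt
Pparg, downstream start: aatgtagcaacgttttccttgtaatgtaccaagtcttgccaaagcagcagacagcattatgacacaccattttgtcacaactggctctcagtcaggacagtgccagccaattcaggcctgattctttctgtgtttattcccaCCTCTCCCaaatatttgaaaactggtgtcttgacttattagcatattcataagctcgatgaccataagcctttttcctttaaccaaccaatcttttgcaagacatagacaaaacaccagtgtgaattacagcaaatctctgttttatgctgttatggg
Zfp423: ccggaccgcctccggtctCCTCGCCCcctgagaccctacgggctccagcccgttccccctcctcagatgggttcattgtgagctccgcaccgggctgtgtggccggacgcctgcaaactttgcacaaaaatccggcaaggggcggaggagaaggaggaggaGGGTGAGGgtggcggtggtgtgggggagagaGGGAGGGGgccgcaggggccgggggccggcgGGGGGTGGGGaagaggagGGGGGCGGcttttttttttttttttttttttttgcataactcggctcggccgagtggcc
Klf15: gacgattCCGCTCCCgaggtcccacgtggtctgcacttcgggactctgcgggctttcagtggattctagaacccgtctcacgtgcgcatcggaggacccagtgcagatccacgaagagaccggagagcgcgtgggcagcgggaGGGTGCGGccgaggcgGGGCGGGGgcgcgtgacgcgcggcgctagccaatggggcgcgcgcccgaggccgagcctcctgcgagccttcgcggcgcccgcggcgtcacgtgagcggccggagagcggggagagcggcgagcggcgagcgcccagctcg

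After filtering, 10532 control and 7374 cKO-labelled nuclei remained, with 92834737 and 62139712 unique molecular identifiers (UMIs, counted molecules) and medians of 7048 and 6497 UMIs per nucleus. The 10 genes took 756427 and 510209 of these UMIs, and 28 cell barcodes occurred in both libraries. Nuclei were clustered without the 10 genes and named from marker genes, so that "adipocyte-like" means high in markers such as Adipoq and Plin1. Adipocyte-like nuclei numbered 4403 (41.8%) and 2920 (39.6%). Prdm16 itself had 16.4 and 22.2 CPM in them (UMIs per 1000000 UMIs of the class), a log2 ratio of 0.43. These are counts of the whole gene, and the labels do not give the deleted part, so that value checks nothing about the deletion. Adipocyte markers were present in every other class: the summed level of Adipoq, Plin1, Plin4, Lipe and Cidec in progenitor or fibroblast-like nuclei was at 18.7% of its adipocyte-like level for the control and at 22.4% for the cKO-labelled library. It was 25.8% and 44.9% in vascular endothelial-like, 29.8% and 50.1% in B cell-like and 32.8% and 51.2% in T cell-like nuclei. All 5 markers shared this, none being at 0: in control T cell-like nuclei they ran from 29.3% to 37.1%. In endothelial-like nuclei as a whole the markers were at 24.4% and 41.3%, and in immune-like nuclei at 27.5% and 39.7%. This background differed between the libraries, and a level outside adipocytes is to be read beside the markers of the same class.

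Of the 10 genes, 5 had their highest level in adipocyte-like nuclei in both libraries when these were set beside progenitor or fibroblast-like, endothelial-like and immune-like nuclei. They were Pparg, Cebpa, Rxra, Klf15 and Tcf7l2, and 21.9% of all 17052 genes measured were highest there by the same reading. Cebpd, Ebf1 and Klf5 were highest in fibroblast-like nuclei (15.3% of all genes) and Zfp423 in endothelial-like nuclei (11.5%). For Zfp423 the control intervals of endothelial-like (455 to 493 CPM) and adipocyte-like nuclei (447 to 458 CPM) overlapped. None of the 10 was highest in immune-like nuclei in both libraries (27.5% of all genes), and Cebpb was highest there only in the control. Classes were formed from these same nuclei, so the levels are a description and one class is not tested against another.

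**Figure D1:**
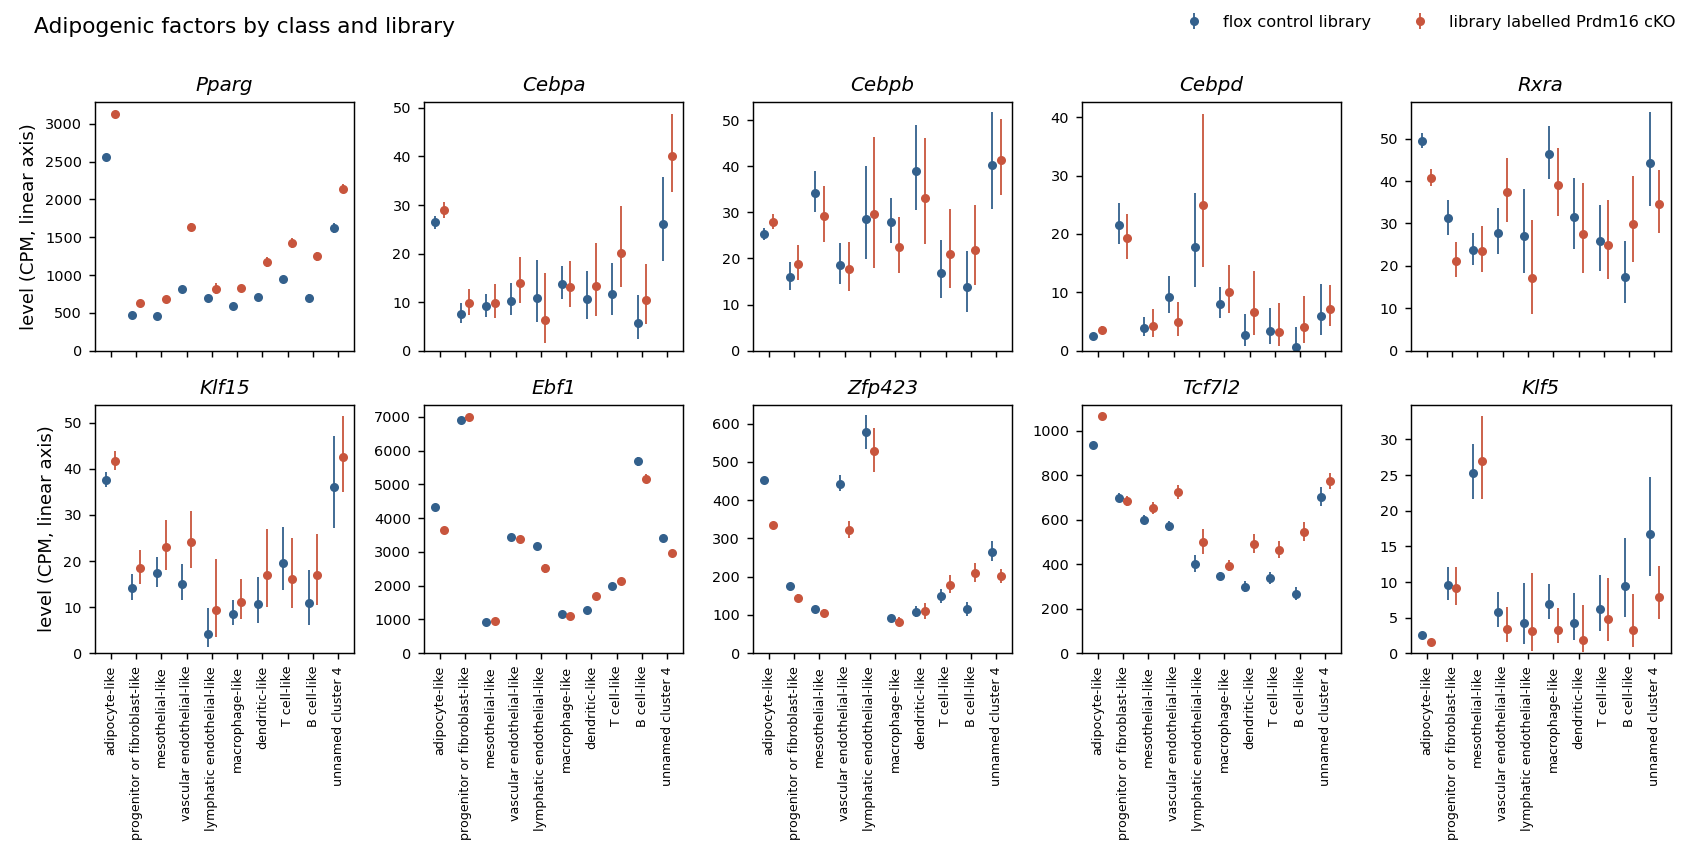
Level of each gene (CPM, linear axis from 0, a separate scale per panel) in 10 classes of nuclei, for the flox control library (blue) and the cKO-labelled library (red). Points are 1 library each and bars are 95% Poisson intervals; Pparg reaches 2559 and 3134 CPM in adipocyte-like nuclei, while Ebf1 is highest in progenitor or fibroblast-like and Klf5 in mesothelial-like nuclei.

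Pparg encodes the receptor that fat cells need to form and to stay fat cells. It lies at chromosome 6, 115360951 to 115490399 on GRCm38 (GENCODE M21), as do all positions below. Control adipocyte-like nuclei had 2559 CPM (2546 to 2572), against 3134 CPM (3117 to 3152) in cKO-labelled ones. The other named classes with at least 100 nuclei per library lay lower, from 456 CPM in mesothelial-like to 943 CPM in T cell-like nuclei of the control, and from 637 CPM in fibroblast-like to 1643 CPM in vascular endothelial-like nuclei of the cKO-labelled library. Adipocyte-like nuclei therefore stood 2.45 and 2.30 above fibroblast-like nuclei on the log2 scale and 1.69 and 1.08 above endothelial-like ones. Most of these other levels were close to the adipocyte marker background. In control fibroblast-like nuclei Pparg was at 18.4% of its adipocyte-like level, beside 18.7% for the markers, and in control macrophage-like nuclei at 23.2%, beside 23.6%. In T cell-like nuclei it was at 36.9% and 45.3%, beside 32.8% and 51.2%. After each nucleus was thinned to 1000 UMIs, 52.1% and 64.8% of T cell-like nuclei had a Pparg UMI, against 81.0% and 89.7% of adipocyte-like nuclei. Regulatory T cells of visceral fat are known to make Pparg, and whether any did so here cannot be told apart from the marker background.

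Among the named classes with at least 100 nuclei per library, Pparg exceeded the summed level of the markers in both libraries in vascular endothelial-like nuclei. It was at 32.1% of the adipocyte-like level beside 25.8% for the control, and at 52.4% beside 44.9% for the cKO-labelled library. Single markers ran from 24.0% to 30.1% in the former and from 41.8% to 57.3% in the latter, a range that holds the cKO-labelled Pparg value. Among the 4 vascular endothelial-like clusters, Pparg was highest in cluster 12, led by Gpihbp1 and Rbp7, genes of capillaries that handle fatty acids. Control nuclei had 1354 CPM there (1285 to 1425) against 2315 CPM (2232 to 2401) in cKO-labelled nuclei, which is 52.9% and 73.9% of the adipocyte-like level beside markers at 37.3% and 59.5%. In cluster 19, led by the arterial genes Gja5 and Sox17, Pparg had 416 and 465 CPM, or 16.3% and 14.8% beside markers at 16.0% and 20.5%. Pericyte-like nuclei, which line capillaries, had 1270 and 1879 CPM in 75 and 44 nuclei, 49.6% and 59.9% beside markers at 28.8% and 54.3%.

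Rxra (chromosome 2, 27676440 to 27762957), the DNA-binding partner of PPARγ and of other receptors, was measured in every class. It had 49.5 CPM (control) and 40.8 CPM (cKO-labelled) in adipocyte-like nuclei, 46.4 and 39.2 CPM in macrophage-like, and 31.2 and 21.2 CPM in fibroblast-like nuclei. B cell-like nuclei had 17.5 and 29.8 CPM, and lymphatic endothelial-like nuclei 27.0 and 17.2 CPM. The intervals of adipocyte-like and macrophage-like nuclei overlapped in each library. Pericyte-like nuclei had 73.1 and 70.3 CPM from only 25 and 19 UMIs. None of the 3 broad groups (fibroblast-like, endothelial-like, immune-like) differed 2-fold from adipocyte-like nuclei, with Rxra at 73.4% and 79.8% of the adipocyte-like level in immune-like nuclei beside markers at 27.5% and 39.7%.

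The 3 C/EBP genes differed from one another in where they were found. Cebpa (chromosome 7, 35119293 to 35121928), PPARγ's partner in mature fat cells, had 26.4 CPM and 29.0 CPM in adipocyte-like nuclei and 7.52 and 9.77 CPM in fibroblast-like nuclei, 28.4% and 33.7% of the adipocyte-like level beside markers at 18.7% and 22.4%. It was at least 2 times higher in adipocyte-like than in fibroblast-like nuclei in both libraries, as were Pparg, Klf15 and Zfp423 (10.4% of all genes), and than in endothelial-like nuclei, as was Pparg (7.4%). Granulocyte-like nuclei, whose cells need C/EBPα to form, had 41.2 and 41.9 CPM from 22 and 12 UMIs. Cebpb (chromosome 2, 167688915 to 167690418), the early factor also known from inflammation, was spread over the classes: 25.3 and 28.0 CPM in adipocyte-like, 34.3 and 29.1 CPM in mesothelial-like and 39.0 and 33.2 CPM in dendritic-like nuclei. Granulocyte-like nuclei of the control had 140 CPM and those of the cKO-labelled library 112 CPM. These were 184 and 99 nuclei, with markers at 53.3% and 62.0%. Cebpd (chromosome 16, 15887286 to 15891031), the other early factor, was low in adipocyte-like nuclei, with 2.48 and 3.58 CPM from 144 and 139 UMIs. It had 21.6 CPM (155 UMIs) and 19.4 CPM (103 UMIs) in fibroblast-like nuclei, 3.12 and 2.43 higher than in adipocyte-like nuclei on the log2 scale. Lymphatic endothelial-like nuclei had 17.7 CPM (21 UMIs) in the control and 16 UMIs in the cKO-labelled library, with intervals that overlapped those of fibroblast-like nuclei. In GENCODE, Cebpb overlaps Tmem189 and Cebpd overlaps Spidr, both on the other strand, as Gm44079 does Pparg and Gm45091 does Cebpa. Strand handling is not given, so reads of such pairs cannot be told apart.

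The KLF genes are zinc finger factors that bind GC-rich boxes. Klf15 (chromosome 6, 90462576 to 90475238), a late factor that also drives Slc2a4 in fat, had 37.6 CPM and 41.7 CPM in adipocyte-like nuclei. It had 14.2 and 18.4 CPM in fibroblast-like, 12.6 and 21.3 CPM in endothelial-like and 11.8 and 14.9 CPM in immune-like nuclei, so none of these 3 groups overlapped adipocyte-like nuclei in either library. In immune-like nuclei that is 31.3% and 35.6% of the adipocyte-like level, beside markers at 27.5% and 39.7%. Pancreatic acinar-like nuclei had 61.4 and 79.2 CPM from 30 and 101 UMIs. Klf5 (chromosome 14, 99298691 to 99315036) had the opposite distribution and was low in adipocyte-like nuclei, with 2.55 CPM (148 UMIs) and 1.57 CPM (61 UMIs). It had 25.3 CPM (168 UMIs) and 27.0 CPM (88 UMIs) in mesothelial-like nuclei, the cell layer that covers mesenteric fat. Intestinal epithelial-like nuclei, from a tissue where KLF5 is known for crypt proliferation, had 276 and 235 CPM in 144 and 24 nuclei. Among fibroblast-like clusters, cluster 14 (led by Nkain3 and Itgbl1) had 20.9 and 26.4 CPM, while cluster 5 had 8.79 and 7.04 CPM and cluster 9 had 5.92 and 5.41 CPM.

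Ebf1 (chromosome 11, 44617317 to 45008091), needed for B cells as well as fat, had 6899 and 6983 CPM in fibroblast-like nuclei, 5680 and 5171 CPM in B cell-like nuclei and 4329 and 3648 CPM in adipocyte-like nuclei. The order of these 3 classes was the same in both libraries, and their intervals did not overlap. Pericyte-like nuclei, with 6477 and 5558 CPM, also exceeded adipocyte-like ones. Ebf1 was not even within the fibroblast-like class: cluster 9 (led by Gfpt2 and Adamts16) had 9278 and 9571 CPM, cluster 5 (Fgf7 and C7) 6587 and 6683 CPM, and cluster 14 2936 and 2966 CPM. Macrophage-like nuclei had 1155 and 1118 CPM, which is 26.7% and 30.7% of the adipocyte-like level beside markers at 23.6% and 26.8%.

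Zfp423 (chromosome 8, 87661810 to 87959595, minus strand) had 452 CPM in control and 335 CPM in cKO-labelled adipocyte-like nuclei, against 175 and 144 CPM in fibroblast-like nuclei, which is 38.6% and 43.1% of the adipocyte-like level beside markers at 18.7% and 22.4%. The progenitor or fibroblast-like class as a whole therefore held less of it than the adipocyte-like class in both libraries. Lymphatic endothelial-like nuclei exceeded both, with 577 and 529 CPM. Vascular endothelial-like nuclei had 443 and 322 CPM, close to adipocyte-like nuclei in each library, and their cluster 20, led by the vein-type genes Vwf and Plvap, had 724 CPM (control) and 457 CPM (cKO-labelled). Cluster 12, the capillary-type cluster with the most Pparg, had less Zfp423 than the other vascular clusters in the control, 303 CPM, and 263 CPM in the cKO-labelled library. Immune-like nuclei had 110 and 133 CPM, which is 24.3% and 39.5% of the adipocyte-like level beside markers at 27.5% and 39.7%, so no Zfp423 was left there above the markers.

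Tcf7l2 (chromosome 19, 55741820 to 55933654) had 934 and 1066 CPM in adipocyte-like nuclei and 699 and 683 CPM in fibroblast-like nuclei. Mesothelial-like nuclei followed with 601 and 653 CPM, and macrophage-like nuclei had 347 and 393 CPM, 37.2% and 36.9% of the adipocyte-like level beside markers at 23.6% and 26.8%. Intestinal epithelial-like nuclei, whose crypts depend on Wnt signals, had 1336 and 1159 CPM in 144 and 24 nuclei, with markers at 33.7% and 52.3%. The noncoding gene Ppnr overlaps Tcf7l2 on the same strand, and reads of the pair cannot be told apart.

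**Figure D2:**
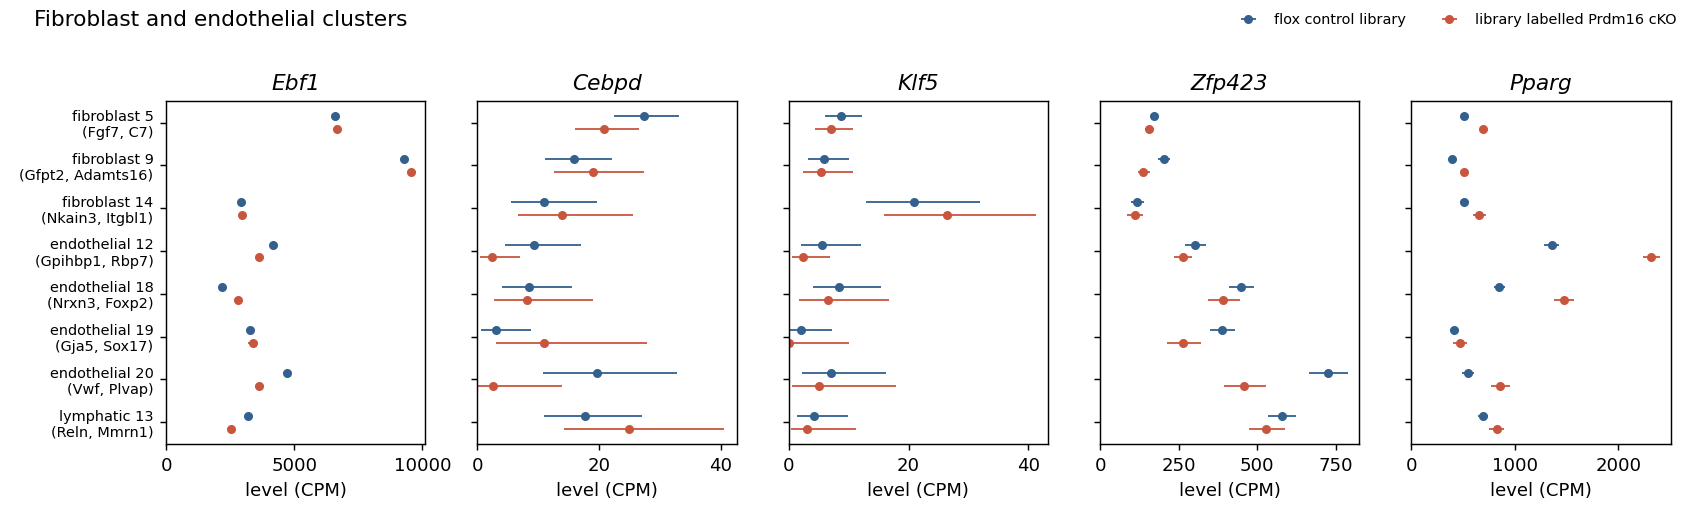
Level (CPM, linear axes from 0) of Ebf1, Cebpd, Klf5, Zfp423 and Pparg in 3 fibroblast-like, 4 vascular endothelial-like and 1 lymphatic endothelial-like cluster, in the control (blue) and cKO-labelled (red) libraries. Points are 1 library each with 95% Poisson intervals; Ebf1 peaks in fibroblast cluster 9, Klf5 in fibroblast cluster 14, Zfp423 in endothelial cluster 20 of the control and Pparg in endothelial cluster 12.

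The comparison of the libraries asks how these factors differ in fat cells of mice meant to lack Prdm16 there. In adipocyte-like nuclei, 6 of 10 were higher in the cKO-labelled library (Pparg, Cebpa, Cebpb, Cebpd, Klf15 and Tcf7l2), as were 55.9% of all 15384 genes measured. The other 4 (Rxra, Ebf1, Zfp423 and Klf5) were lower, as were 44.1% of all genes. Differences were small: the median log2 ratio of the 10 was 0.14, beside 0.03 over all genes. Of the 10, 0 were at least 1.5 times higher (5.36% of all genes), and 1, Klf5, was at least 1.5 times lower (3.3%). No replicate shows how much 2 libraries of the same genotype would differ.

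These pooled values mix 3 adipocyte-like clusters that made up different shares of the class in the 2 libraries. Cluster 0, led by Slc1a3 and Adrb3, the fat cell β-adrenergic receptor, held 38.8% of the adipocyte-like nuclei of the control and 42.3% of those of the cKO-labelled library. Cluster 1, led by the fatty acid synthesis genes Elovl6, Acly, Acss2 and Me1, held 21.3% and 49.0%. Cluster 2, led by Nnat, Tshr and Peg3, held 39.9% and 8.63%. Each ratio was therefore also taken within each cluster.

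Pparg was higher in the cKO-labelled library in each cluster, but by less than in the pool. The pooled log2 ratio was 0.29 (0.28 to 0.30), and those of clusters 0, 1 and 2 were 0.15, 0.20 and 0.19. Control levels were 2768, 2867 and 2157 CPM in the 3 clusters, and cKO-labelled levels were 3079, 3300 and 2456 CPM. Cluster 2, which was small in the cKO-labelled library, had the lowest level in both.

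Ebf1 was lower in the pool and not within any cluster. Its pooled log2 ratio was -0.25 (-0.26 to -0.24), while those within clusters 0, 1 and 2 were 0.02 (0.0029 to 0.03), 0.02 and 0.02. The levels within clusters were 3961 against 4009 CPM, 2958 against 3000 CPM and 5531 against 5625 CPM, control first. Ebf1 thus differed more between clusters of 1 library than between libraries within a cluster.

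Zfp423 was lower in the cKO-labelled library in the pool and in each cluster. The pooled log2 ratio was -0.43 (-0.46 to -0.40), and the clusters gave -0.31, -0.50 and -0.38. Control levels of 462, 428 and 457 CPM stood against 372, 303 and 350 CPM, so that no cKO-labelled cluster reached the lowest control cluster. After thinning to 1000 UMIs, 34.3% (32.9 to 35.7%) of control and 28.3% (26.6 to 29.9%) of cKO-labelled adipocyte-like nuclei had a Zfp423 UMI.

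Rxra, the partner of PPARγ, was also lower in the pool and in each cluster. Its pooled log2 ratio was -0.28 (-0.37 to -0.19), and those within clusters 0, 1 and 2 were -0.19, -0.31 and -0.29. Klf15 went the other way, with 0.15 (0.05 to 0.24) in the pool and 0.23, 0.33 and 0.12 in the clusters. Cebpa had 0.13 (0.02 to 0.24) in the pool and 0.29, 0.04 and 0.23 in the clusters, of which only that of cluster 0 had an interval without 0.

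For the remaining 4 members the clusters differed or counts were low. Tcf7l2 had 0.19 (0.17 to 0.21) in the pool, 0.23 in cluster 0, -0.02 in cluster 1 and 0.49 in cluster 2. It was thus higher in cKO-labelled nuclei of clusters 0 and 2, and level in the cluster of fatty acid synthesis genes. Cebpb had 0.14 (0.03 to 0.26) in the pool, and 0.11, 0.0018 and 0.43 in the clusters. Cebpd had 0.53 (0.19 to 0.88) and Klf5 -0.70 (-1.15 to -0.26), both from under 150 UMIs per library, and their ratios kept their signs in each cluster. For Klf5 each single-cluster interval included 0.

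**Figure D3:**
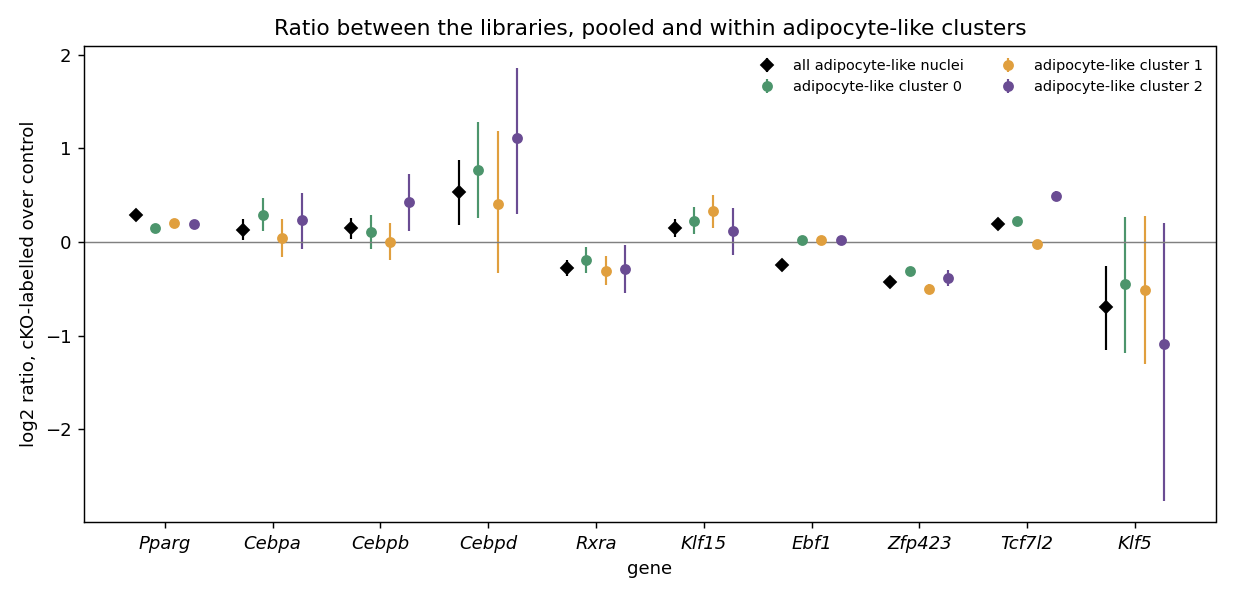
Log2 ratio of the cKO-labelled over the control library for the 10 genes, in all adipocyte-like nuclei (black diamonds) and within adipocyte-like clusters 0 (green), 1 (orange) and 2 (purple). Bars are 95% intervals of counting error; the pooled Ebf1 ratio of -0.25 lies apart from its 3 cluster values of 0.02, whereas Zfp423 lies below 0 in the pool and in each cluster.

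Outside adipocytes, Pparg was higher in the cKO-labelled library in all 9 classes compared, those where each library had at least 100 nuclei. Its log2 ratio ran from 0.25 in lymphatic endothelial-like nuclei to 1.00 (0.93 to 1.07) in vascular endothelial-like nuclei, where the adipocyte markers were at 25.8% and 44.9% of their adipocyte-like level. Among the 9 is unnamed cluster 4, where adipocyte markers were at 68.4% and 79.8% of the adipocyte-like level. It held 4.14% and 12.9% of all nuclei, with a median of 2062 UMIs. Without it Pparg was higher in 8 of 8 classes. With the adipocyte profile subtracted in proportion to the markers, Pparg stayed above 0 in both libraries in 1 of the 9 classes, the vascular endothelial-like one, with a log2 ratio of 0.55. The levels left were not rescaled for the part subtracted, so the step from 1.00 to 0.55 is not read as a correction. Over all members, 41 of 68 pairs of gene and class outside adipocytes were higher as counted. In the single classes, from 49.3% (T cell-like) to 56.4% (fibroblast-like) of all genes were higher. The pair counts are therefore not read as a result about the members. After subtraction 51 pairs were above 0 in both libraries, and 17 of these were higher, against 27 of the same 51 as counted. The part subtracted was larger in the cKO-labelled library in each of these classes, which by itself tends to lower the ratios. No share of all genes was taken after subtraction, so the fall to 17 is not read as a result about the members. Without cluster 4, 36 of 60 pairs were higher as counted, and after subtraction 16 of the 46 pairs left.

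Of the 10 members, 5 were higher in cKO-labelled fibroblast-like nuclei, as were 56.4% of all 11495 genes. None passed 1.5 times higher (4.99% of all genes) or lower (2.52%). Rxra had a log2 ratio of -0.55 (-0.89 to -0.22) and Zfp423 one of -0.27 (-0.40 to -0.14), the same sign as in adipocyte-like nuclei. Ebf1 had 0.02 (-0.0021 to 0.04) and Tcf7l2 -0.03 (-0.10 to 0.03).

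In vascular endothelial-like nuclei, 5 of the 9 members with enough UMIs were higher, as were 54% of all 9814 genes. Pparg and Klf15 were at least 1.5 times higher (9.81% of all genes), and Cebpd at least 1.5 times lower (5.47%). Zfp423 had a log2 ratio of -0.46 (-0.58 to -0.34), and within the 4 clusters it ran from -0.66 in cluster 20 to -0.19 in cluster 18. At clustering resolution 0.5, cluster 18 joined the lymphatic endothelial-like nuclei, so its class depends on that setting. Tcf7l2 had 0.34 (0.26 to 0.43) and Klf15 0.68 (0.15 to 1.21), with adipocyte markers higher in the same nuclei, and the part of these markers in the ratios was not tested. After subtraction these were -0.42 for Tcf7l2 and 0.02 for Klf15. The levels left were not rescaled for the part subtracted, which was larger in the cKO-labelled library. That by itself lowers both values, so neither is read as a corrected ratio.

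The marker background also differed between libraries in immune classes. In B cell-like nuclei, 4 of 5 members with enough UMIs (Pparg, Rxra, Zfp423 and Tcf7l2) were at least 1.5 times higher, against 8.33% of all 7091 genes, while adipocyte markers were at 29.8% and 50.1% of their adipocyte-like level. The exception was Ebf1, with -0.14 (-0.18 to -0.09). After subtraction Ebf1 had -0.39. Rxra went from 0.77 (-0.0064 to 1.58, which includes 0) to 1.80, with 2.70 and 9.39 CPM left from 24 and 37 UMIs. The levels left were not rescaled for the part subtracted, which was larger in the cKO-labelled library. That by itself lowers both ratios, so the sign of the Ebf1 value after subtraction is not read. Pparg, Zfp423 and Tcf7l2 were not left above 0 in the control. In the cKO-labelled library 41.5 CPM of Zfp423 and 11.0 CPM of Tcf7l2 were left, and no Pparg. In macrophage-like nuclei, where the markers were at 23.6% and 26.8%, 4 of 9 members were higher (53.1% of all 9897 genes), and none passed 1.5 times in either direction (4.47% and 3.04%). The part of adipocyte RNA in these ratios was not tested beyond the subtraction.

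**Figure D4:**
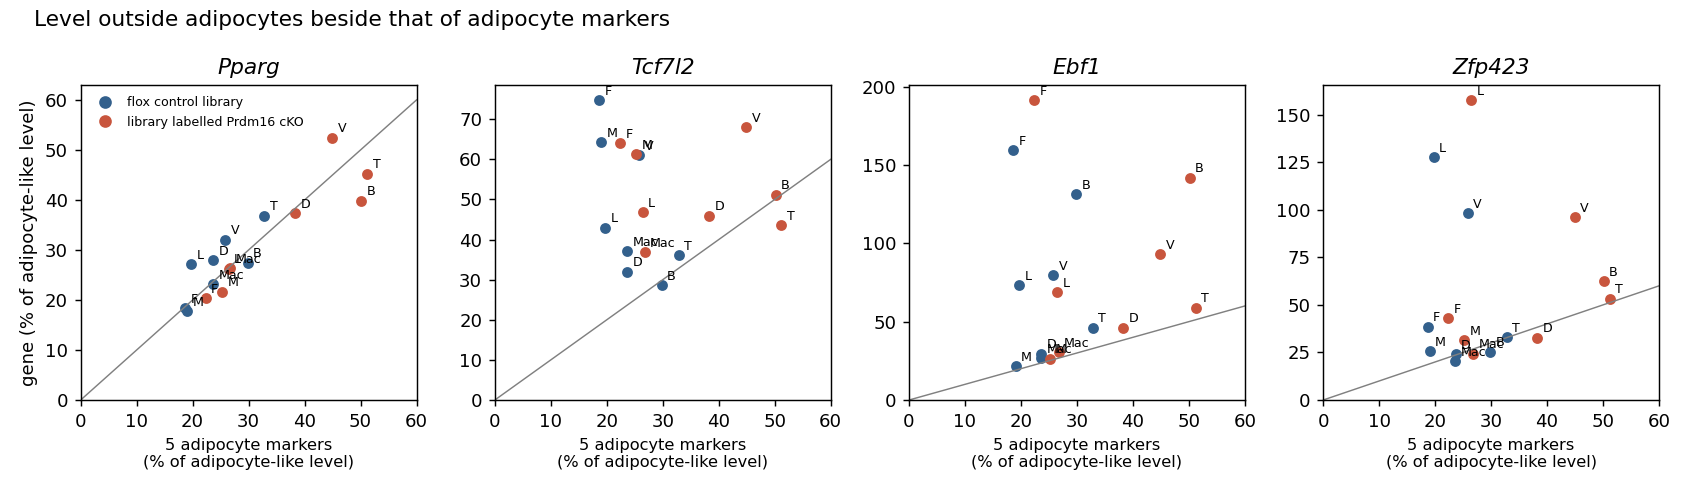
For Pparg, Tcf7l2, Ebf1 and Zfp423, the level in each class outside adipocytes as a percent of the gene's adipocyte-like level (vertical) against the same percent for the 5 adipocyte markers (horizontal), in the control (blue) and cKO-labelled (red) libraries. F is fibroblast-like, M mesothelial-like, V vascular and L lymphatic endothelial-like, Mac macrophage-like, D dendritic-like, T and B the lymphocyte classes; the line marks equal percents, along which Pparg lies in most classes, while Ebf1 in F and B and Zfp423 in L and V lie well above it.

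Genes that act with the members in fat cells were read from lists, by their ratios in adipocyte-like nuclei. The levels are given control first. Of 24 target genes of PPARγ in fat storage, 13 were higher and 11 lower in the cKO-labelled library, with a median log2 ratio of 0.01 beside 0.03 over all genes. At least 1.5 times higher were 3 (5.36% of all genes), among them the glucose carrier Slc2a4 (0.85) and Gpd1 (0.80), which makes glycerol phosphate. At least 1.5 times lower were 4 (3.3% of all genes), among them the lipase inhibitor Angptl4 (-0.90) and the pyruvate dehydrogenase kinase Pdk4 (-0.71). These 4 named genes kept their signs within clusters 0, 1 and 2, with Slc2a4 at 0.39, 0.88 and 0.51 and Pdk4 at -0.75, -0.92 and -0.73.

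Of 12 listed genes around TCF and β-catenin, 11 were lower and 1, Bcl9l (0.17), was higher, with a median of -0.14, where 44.1% of all genes were lower. The list is mixed: it holds TCF and LEF genes, the β-catenin gene, co-factors such as Tle1, and also Axin2, Apc and Gsk3b. The co-repressors Tle3, with 70.0 CPM against 44.2 CPM, and Tle1, with 195 CPM against 142 CPM, had log2 ratios of -0.66 and -0.46. TLE3 is also known as a partner of PPARγ. Both were lower in each cluster (Tle3 -0.54, -0.44 and -0.73, Tle1 -0.24, -0.42 and -0.36). Within clusters 0, 1 and 2, 2, 4 and 4 of the 12 genes were higher and the medians were -0.05, -0.07 and -0.23, nearer to 0 than the pooled median in clusters 0 and 1 and farther in cluster 2.

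The other lists were split, where 55.9% of all genes were higher and 44.1% lower. Of 15 coregulators of PPARγ, 6 were higher and 9 lower, and Nrip1, a co-repressor of energy expenditure genes, had -0.37 in the pool and -0.32, -0.21 and -0.26 in the clusters. Of 10 measured relatives among PPAR, RXR and C/EBP genes, 6 were higher, and none passed 1.5 times. The 2 sister genes of Rxra differed: Rxrb had 0.37, opposite in sign to Rxra, and Rxrg had -0.14, the same sign. Of 11 further KLF genes, 5 were higher, with Klf10 at 0.83 and Klf11 at -0.44. Within clusters 0, 1 and 2, Klf10 had 0.57, 0.72 and 0.36, and Klf11 had -0.51, -0.15 and -0.42. Of the EBF and ZNF relatives, 2 of 4 measured were higher, and Ebf2, known from brown fat precursors, had -0.03 with 514 and 502 CPM. Of 13 measured early drivers of fat formation, 7 were higher, with Srebf1, the activator of fatty acid synthesis genes, at 0.83 and Zbtb16 at -0.45. Within clusters 0, 1 and 2, Srebf1 had 0.50, 0.53 and 0.62, each below its pooled value. Zbtb16 had -0.15, -0.05 and -0.56 there. Of 13 measured brakes on fat formation, 7 were higher, with Sox9 at 1.27 from a level of 0.705 CPM, and Foxo1 at -0.18.

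The genes most like each member across classes were found by Pearson correlation of log2(CPM + 1) over 20 points, which are 10 classes in each of 2 libraries, among 14302 genes. Points of 1 library share depth and free RNA, so these are descriptions only. Pparg ran closest with Lpin1 (0.99), Tmem120b (0.99) and Adipor2 (0.98), and Cebpa with Slc5a6 (0.92), Neat1 (0.91) and Ces1f (0.91). Klf15 ran closest with Lzts2 (0.95), Tcf7l2 with the noncoding gene Lncppara (0.96), Zfp423 with Stard13 (0.92) and Cebpd with Dennd2a (0.89). Klf5 ran closest with Wt1os (0.92), an antisense gene of the mesothelial factor Wt1. Ebf1 was closest to Plpp3 (0.85) and next to Gm12158 (0.83), which overlaps it on the other strand. Rxra (Insr, 0.82) and Cebpb (Poc1a, 0.73) had the least alike partners. Among the members themselves the closest pairs were Pparg with Cebpa (0.82), Klf15 with Tcf7l2 (0.75) and Pparg with Klf15 (0.72), and the least alike pair was Pparg and Klf5 (-0.51).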

How the data were processed

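The deposited matrices hold whole-number UMI counts per gene and barcode, not normalized, made by the authors with Cell Ranger 6.1.2 on mm10, per the submitters' processing notes. The sources used here do not say whether intronic reads were counted or how strand was handled. Of 12060 control and 8086 cKO-labelled barcodes, with 108987031 and 70895490 UMIs, none had under 500 UMIs or 300 genes, and those with 5% or more mitochondrial UMIs were removed (449 and 217). Scrublet's automatic threshold marked under 0.5% of nuclei, so the highest scores were removed at 0.8% per 1000 nuclei (1079 and 495). Both libraries were jointly clustered in Python 3.11.15 (scanpy 1.11.5, leidenalg 0.10.2) on 2000 variable genes without the 10 members, 30 principal components, 20 neighbours and resolution 1.0, giving 28 clusters. A cluster was named "X-like" where at least 3 markers of a set stood out. Clusters 4, 15 and 27 stayed unnamed.

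Sums of counts per class in each library were divided by all UMIs of that class to give CPM, with exact Poisson intervals. Log2 ratios have exact conditional binomial intervals, and shares of nuclei exact Clopper-Pearson intervals, all at 95%. Genes needed at least 50 UMIs over both libraries, classes at least 100 nuclei in each, and likeness at least 200 UMIs. Simulated data checked the calculation of the ratio intervals for adipocyte-like nuclei: 95.2% of 13934 unchanged genes were covered. The draws were Poisson, as the intervals assume, so such coverage was built in. Spread between nuclei, animals or libraries was not simulated. The members, lists and tests were chosen with earlier results of these data known. From each list, the 2 genes with the highest and the 2 with the lowest ratio could be named. Positions are from GENCODE M21. Alternatives covered scaling (edgeR 4.0.16 TMM, DESeq2 1.42.0 size factors, on the sums), thinning, doublets, clustering, subtraction of adipocyte RNA and the low-count filter.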

Additional observations from a re-analysis of the deposited data

Results flagged for a closer look

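In 5 cases a member's ratio between the libraries had the opposite sign in another class than in adipocyte-like nuclei, with both intervals of counting error away from 0. None of these differences was tested, since each genotype had 1 library. Rxra had a log2 ratio of 0.42 in vascular endothelial-like nuclei against -0.28 in adipocyte-like nuclei. Ebf1 had 0.10 in T cell-like and 0.39 in dendritic-like nuclei against -0.25. Zfp423 had 0.87 in B cell-like and 0.27 in T cell-like nuclei against -0.43. In the same nuclei the 5 adipocyte markers were higher in the cKO-labelled library, from 25.8% to 44.9% of their adipocyte-like level in vascular endothelial-like, 32.8% to 51.2% in T cell-like, 23.7% to 38.3% in dendritic-like and 29.8% to 50.1% in B cell-like nuclei. With the adipocyte profile subtracted in proportion to these markers, Ebf1 was at -1.06 in T cell-like nuclei and at 0.16 in dendritic-like nuclei. Zfp423 was not left above 0 in control B cell-like nuclei. In control T cell-like nuclei it was left at 0.401 CPM, too little to read a ratio from. Rxra in vascular endothelial-like nuclei had 0.33. The levels left were not rescaled for the part subtracted, which was larger in the cKO-labelled library in each of these classes. That by itself lowers the ratios after subtraction, so they are not read as corrected ratios. Beyond this subtraction the part of adipocyte RNA was not tested.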

How the results depend on the processing

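No paired analysis was possible because each genotype had 1 library, and for the same reason no replicate could be left out. Under 13 alternatives in adipocyte-like nuclei, 7 members kept the sign of their ratio in all: Pparg (0.15 to 0.31), Cebpa (0.04 to 0.30), Cebpd (0.41 to 1.11), Klf15 (0.11 to 0.33), Rxra (-0.48 to -0.19), Zfp423 (-0.50 to -0.31) and Klf5 (-1.28 to -0.44). In 2 of the 13 the class held other nuclei, because the Elovl6-led cluster got no name: with doublets kept (289 control and 861 cKO-labelled nuclei) and with each library clustered on its own (845 cKO-labelled nuclei only, while 551 control nuclei like those of unnamed cluster 4 were added). Cebpb (-0.06 with nuclei thinned to 1000 UMIs) and Tcf7l2 (-0.02 in cluster 1 alone) each changed sign in 1, and Ebf1 in 4: each single cluster, and equal weight per cluster (0.02 in each). The members' median of 0.14 became 0.011 in cluster 1 alone. The count of members highest in adipocyte-like nuclei was 5, and 7 with the adipocyte profile subtracted from the other groups. That subtraction left the adipocyte-like levels as they were, which by itself tends to raise the count. With the adipocyte profile subtracted, 51 of 68 pairs of gene and class outside adipocytes were left above 0 in both libraries. Of these 51, 17 were higher, against 27 as counted. Over the 68 pairs, 41 were higher as counted, beside 49.3% to 56.4% of all genes in the single classes. More was subtracted in the cKO-labelled library in each class, and the levels left were not rescaled, which by itself lowers the ratios. No share of all genes was taken after subtraction. Without unnamed cluster 4, an alternative chosen after seeing the data, 36 of 60 were higher as counted. TMM scaling moved all ratios by -0.03 and DESeq2 size factors by -0.03. Counts of 148 and 61 UMIs limit Klf5 and 144 and 139 limit Cebpd.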
